A study of Mus musculus with 4 samples.

Results

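The mitotic entry kinases and their regulators were taken as 10 genes listed by name: Cdk1, Wee1, Cdc25c, Plk1, Aurka, Tpx2, Plk4, Nek2, Melk and Pbk. Each was found once among the 55335 rows of the deposited expression table. RNA-seq had been made by SMART-SeqII, which amplifies full-length cDNA from small amounts of RNA, in 4 libraries of sorted epithelium taken from the corpus of the stomach, in C57BL/6 mice that were 6 to 8 weeks old. All mice carried Iqgap3-2A-tdTomato, a reporter allele that links the red fluorescent protein tdTomato to Iqgap3, so both groups share it. Living EpCAM+ cells were sorted by tdTomato into an Iqgap3high fraction (IQ3pos) and an Iqgap3low/neg fraction (IQ3neg). IQ3pos_1909A and IQ3neg_1909B are labelled as 3 pooled mice each, and IQ3pos_1910A and IQ3neg_1910B as 4 pooled mice each. Whether both fractions of a number came from the same mice is not stated in the labels. Where a pair of values is given for a fraction, the 3-mouse library comes first and the 4-mouse library second. The question was how far the RNA of the mitotic entry machinery separates corpus cells with a high Iqgap3 reporter from the rest.

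Entry into mitosis turns on the kinase CDK1, which pairs with cyclin B and is held inactive in G2 by phosphates that WEE1 adds and the CDC25 phosphatases remove. Aurora A (Aurka), switched on by TPX2 and by Bora, activates the Polo kinase PLK1, which in turn favours CDC25 and helps to remove WEE1. PLK4 starts centriole duplication, NEK2 loosens the link between centrosomes before they part, and MELK and PBK are kinases made mainly by dividing cells. In the corpus gland most division takes place in the isthmus, between the surface pit cells above and the neck, chief and parietal cells below. Many of these genes are transcribed in G2 and mitosis.

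The libraries held between 90714929 and 418401262 reads assigned to genes, which makes a single read worth 0.00239 to 0.0110 CPM (counts per 1000000 reads). Epcam, the marker of the sort gate, stood at 473 and 517 CPM in IQ3pos and at 205 and 266 CPM in IQ3neg. Iqgap3 itself stood at 0.220 CPM in IQ3pos_1909A and 9.32 CPM in IQ3pos_1910A, against 0.0435 CPM in IQ3neg_1909B and 0.452 CPM in IQ3neg_1910B, so that IQ3pos_1909A lay below IQ3neg_1910B for the gene behind the sort. The pools also differed in sex. The Y-linked gene Ddx3y stood at 110 and 102 CPM in the 3-mouse libraries and had 0 reads in both 4-mouse libraries. The X-inactivation transcript Xist stood at 0.0992 and 0.0174 CPM in the former and at 63.9 and 42.4 CPM in the latter. Sex was thus the same in both fractions of a number, and sex and pool number cannot be told apart. Gast, the hormone gastrin, which is made mainly by G cells of the antrum, had 0 reads in both 3-mouse libraries and stood at 19.6 CPM in IQ3pos_1910A and 487 CPM in IQ3neg_1910B, although all samples are labelled corpus. Mitochondrial genes took 11.8% and 8.17% of reads in IQ3pos and 8.20% and 2.88% in IQ3neg, and 29724 and 30017 rows were above 0 in IQ3pos, against 21757 and 21823 in IQ3neg. The part of these differences in the results below was not tested. Markers of chief cells, the pepsinogen-secreting cells of the gland base, took up about as much of IQ3neg as all other genes together, 518062 and 503823 CPM for 8 markers, against 61864 and 21926 CPM in IQ3pos. CPM are shares. TMM scaling applies a single factor to each library, set so that most genes differ little, and does not even out cell composition. The log2 difference of the median gene was 0.68 in favour of IQ3pos in CPM, or 1.60-fold, and 0.04 after TMM scaling. Differences below are read against this shift. In bulk samples, fewer dividing cells and less RNA per dividing cell cannot be told apart.

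As a group, 9 of the 10 genes, all but Aurka, had CPM in each IQ3pos library above each IQ3neg library, where 40.9% of the 13019 tested genes did. With TMM-scaled CPM the count was 7 of 10 (Melk and Wee1 also overlapped), against 24.7% of tested genes. In CPM it was 10 of 10 without IQ3pos_1909A, the library with little Iqgap3, and also 10 of 10 without IQ3neg_1910B. It stayed at 9 of 10 without IQ3pos_1910A or without IQ3neg_1909B. Leaving out a library makes such separation easier for any gene, and the share of all genes was not counted there. The median log2 difference of the 10 was 3.69, or 3.01 above that of all tested genes. It was 4.82 without IQ3pos_1909A, 2.96 without IQ3pos_1910A, 2.39 without IQ3neg_1909B and 4.84 without IQ3neg_1910B. No single gene passed limma's test over all genes (adjusted p from 0.0717 for Cdk1 to 0.603 for Aurka), and 0% of all tested genes were called higher or lower. At an unadjusted p under 0.05, 7 of the 10 were higher in limma, against 18.2% of all tested genes; the 3 others were Wee1, Aurka and Melk. With edgeR on the recovered reads 0 of the 10 were called, where 0.0535% of genes were called higher, and the DESeq2 Wald test called Cdk1 alone (adjusted p = 0.0302), where 2.54% of genes were. In limma, 0 of the 10 were called on TMM-scaled CPM (0.0461% of genes higher), 1 where the mean had to reach 5 CPM (7.83%) and 5 with a replicate block on the pool number (9.34%). All 10 met the filter of a mean of 1 CPM, Nek2 only through IQ3pos, since its IQ3neg mean was 0.406 CPM.

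**Figure D1:**
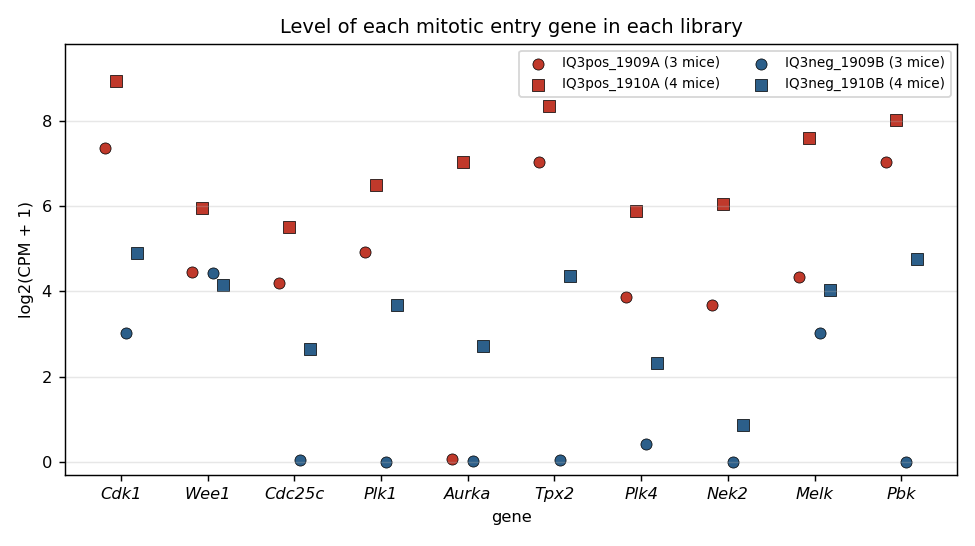
Level of each of the 10 genes, as log2(CPM + 1), in the 4 libraries; red marks IQ3pos, blue IQ3neg, circles the 3-mouse pools and squares the 4-mouse pools, and each point is 1 library. For Cdk1, Cdc25c, Plk1, Tpx2, Plk4, Nek2 and Pbk both red points lie well above both blue points, while for Aurka the red circle sits at the bottom of the plot beside a blue one.

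Cdk1, the kinase that drives the G2 to M transition, had the highest CPM of the 10 in both IQ3pos libraries. It lies on chromosome 10 of GRCm38 at 69335146 to 69352938 on the minus strand. It stood at 164 CPM in IQ3pos_1909A and 487 CPM in IQ3pos_1910A, against 7.09 CPM in IQ3neg_1909B and 28.8 CPM in IQ3neg_1910B. The groups did not overlap, and the lowest IQ3pos library was still several times the highest IQ3neg library. The ratio was 23.1 between the 3-mouse libraries (14860 and 816 reads, 95% exact interval 21.5 to 24.8) and 16.9 between the 4-mouse libraries (95% exact interval 16.6 to 17.3), intervals that cover counting error only. Means were 326 ± 229 and 17.9 ± 15.3 CPM (SD, n = 2 each). The log2 difference was 4.19 (SE 0.81, limma adjusted p = 0.0717), or 3.46 with TMM-scaled CPM.

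The regulators of the inhibitory phosphates on CDK1 differed from each other. Wee1, the kinase that adds the tyrosine phosphate, stood at 20.9 and 60.9 CPM in IQ3pos, against 20.7 and 16.8 CPM in IQ3neg. Between the 3-mouse libraries its ratio was 1.01 (95% exact interval 0.954 to 1.08), and between the 4-mouse libraries it was 3.63 (3.53 to 3.74). The 2 fractions nearly touched in CPM, and with TMM-scaled CPM they overlapped, at 16.6 and 45.1 against 30.1 and 19.6. Its log2 difference of 0.91 (SE 0.67, limma adjusted p = 0.467) was 0.23 above that of all genes, and 42.1% of tested genes had a larger one. It was 0.16 without IQ3pos_1910A and 1.66 without IQ3pos_1909A. Cdc25c, a phosphatase that removes the phosphates, stood at 17.2 and 44.8 CPM in IQ3pos, against 0.0348 and 5.25 CPM in IQ3neg, with no overlap. The value in IQ3neg_1909B rests on 4 reads, so its ratio of 496 between the 3-mouse libraries has a 95% exact interval of 193 to 1822. Between the 4-mouse libraries the ratio was 8.53, and the log2 difference was 3.51 (SE 1.18, limma adjusted p = 0.165), or 2.21 without IQ3neg_1909B. Wee1 lies on chromosome 7 at 110122046 to 110143286 and Cdc25c on chromosome 18 at 34732993 to 34751533. The exons of Cdc25c overlap those of Gm3550 on the other strand, which stood at 0.110 and 9.45 CPM in IQ3pos and at 0.0174 and 1.71 CPM in IQ3neg. The strand setting of the counting is not given, so reads in the overlap could belong to either gene.

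Plk1, the Polo kinase of mitotic entry, stood at 29.2 CPM in IQ3pos_1909A and 89.1 CPM in IQ3pos_1910A. It had 0 reads in IQ3neg_1909B, where 3 reads would be 0.0261 CPM, and stood at 11.8 CPM in IQ3neg_1910B. Both IQ3pos libraries thus lay above both IQ3neg libraries, by a factor of 7.57 between the 4-mouse libraries and at least 1119-fold higher between the 3-mouse libraries when IQ3neg_1909B is put at 3 reads. The log2 difference was 3.87 (SE 1.36, limma adjusted p = 0.177), and 2.03 without IQ3neg_1909B or 5.70 without IQ3neg_1910B. Plk1 lies on chromosome 7 at 122159439 to 122169873, and its exons overlap Gm44985 on the other strand, which had 17.5 and 9.44 CPM in IQ3pos and 2.61 and 6.69 CPM in IQ3neg.

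Aurora A and its activator went together in the 4-mouse libraries and apart in the 3-mouse libraries. Tpx2, which binds Aurora A on spindle microtubules and switches it on, stood at 129 and 325 CPM in IQ3pos, against 0.0348 and 19.4 CPM in IQ3neg, and the fractions did not overlap. Its log2 difference of 5.49 (SE 1.42, limma adjusted p = 0.109) was the third largest of all tested genes. Both rest in part on the 4 reads in IQ3neg_1909B: the difference was 3.33 without that library and 7.64 without IQ3neg_1910B. Aurka stood at 129 CPM in IQ3pos_1910A and 5.62 CPM in IQ3neg_1910B, a ratio of 23.0 (95% exact interval 22.0 to 24.0). In the 3-mouse libraries it was nearly absent from both fractions, with 5 reads in IQ3pos_1909A (0.0551 CPM, 95% exact Poisson interval 0.0179 to 0.129) and 1 read in IQ3neg_1909B. Those reads give a ratio of 6.34 with an interval of 0.709 to 300, which does not set the 2 libraries apart. For Aurka, IQ3neg_1910B therefore lay above IQ3pos_1909A. Its log2 difference was 2.18 (SE 2.40, limma adjusted p = 0.603), and −1.29 without IQ3pos_1910A or 5.65 without IQ3pos_1909A. Of the 1828 tested genes with at least 100 CPM in IQ3pos_1910A, Aurka was the only gene with 5 reads or fewer in IQ3pos_1909A. The cutoff equals the reads of Aurka there. Such genes were as rare in the other directions. Of 1622 genes at that level in IQ3pos_1909A, 1 had 5 reads or fewer in IQ3pos_1910A. In IQ3neg it was 1 of 874 genes high in IQ3neg_1910B and 1 of 675 high in IQ3neg_1909B. Both genes lie on chromosome 2, Tpx2 at 152847964 to 152895321 and Aurka at 172356190 to 172370535.

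The promoters of Cdk1, Plk1, Aurka and Nek2 are shown because they hold letters of elements known from promoters of G2 and M genes, the cell cycle genes homology region (CHR) and the CCAAT box. RefSeq promoter entries on GRCm38.p6 were used, from 250 bases before to 50 after the start that each entry takes. That start differs by some bases from the gene coordinates given here, so before and after refer to the start of the entry. They were used for 6 of the 10 genes: Cdk1, Plk1, Plk4, Aurka, Nek2 and Melk. The promoters of the remaining genes were not examined, so their letters are not known here. Capitals mark CHR letters (TTTGAA, or TTCAAA on the other strand) and CCAAT letters (CCAAT, or ATTGG on the other strand), and the motifs do not overlap. The 100 bases before the start, 5′ to 3′ on the gene's strand, are chr10:69352913-69353012 (minus) for Cdk1, chr7:122159335-122159434 (plus) for Plk1, chr2:172370571-172370670 (minus) for Aurka and chr1:191821373-191821472 (plus) for Nek2. The sites of 30 bases after the start are chr7:122159453-122159482 for Plk1 and chr2:172370521-172370550 for Aurka.
Cdk1: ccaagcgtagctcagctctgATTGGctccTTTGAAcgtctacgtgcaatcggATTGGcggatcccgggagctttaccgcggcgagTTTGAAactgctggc
Plk1: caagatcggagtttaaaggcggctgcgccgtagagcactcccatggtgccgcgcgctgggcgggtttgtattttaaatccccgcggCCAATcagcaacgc
Plk1 after the start: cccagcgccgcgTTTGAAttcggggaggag
Aurka: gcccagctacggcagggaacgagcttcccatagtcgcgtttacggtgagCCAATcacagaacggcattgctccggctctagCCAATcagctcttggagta
Aurka after the start: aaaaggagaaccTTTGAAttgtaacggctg
Nek2: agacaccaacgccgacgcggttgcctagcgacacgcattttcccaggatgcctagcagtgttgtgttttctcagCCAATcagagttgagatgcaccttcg

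In the whole 300-base windows Cdk1 held 2 CHR and 3 CCAAT matches, Aurka 1 and 2, Plk1 1 and 1, and Nek2 0 and 2. Of 32851 promoter windows of this length, 17.9% held a CHR match on either strand, 37.4% a CCAAT match and 6.95% both. The windows of Plk4 and Melk held neither set of letters and are not printed. A match is a description of letters and was not tested as a binding site.

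Plk4, the kinase that starts centriole duplication, stood at 13.6 and 58.1 CPM in IQ3pos, against 0.330 and 3.96 CPM in IQ3neg, with no overlap. The ratio was 41.1 between the 3-mouse libraries and 14.7 between the 4-mouse libraries, and the log2 difference was 3.51 (SE 1.15, limma adjusted p = 0.157). Nek2, which acts on the linker between centrosomes, had the steepest contrast between the 4-mouse libraries, 65.4 against 0.813 CPM, a ratio of 80.5 (95% exact interval 72.3 to 89.9). In the 3-mouse libraries it stood at 11.9 CPM against 0 reads, at least 456-fold higher with IQ3neg_1909B put at 3 reads. The log2 difference was 4.44 (SE 1.16, limma adjusted p = 0.110). Plk4 lies on chromosome 3 at 40800019 to 40816883 and Nek2 on chromosome 1 at 191821444 to 191833050. The exons of Nek2 overlap the antisense gene Gm38037, which had 5.18 and 2.69 CPM in IQ3pos and 0 and 0.0382 CPM in IQ3neg.

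Pbk and Melk, both kinases of dividing cells, differed in how evenly they marked IQ3pos. Pbk stood at 129 and 258 CPM in IQ3pos, had 0 reads in IQ3neg_1909B and stood at 25.9 CPM in IQ3neg_1910B. Between the 3-mouse libraries it was at least 4948-fold higher in IQ3pos with IQ3neg_1909B put at 3 reads, while the ratio between the 4-mouse libraries was 9.96. Its log2 difference of 5.14 (SE 1.52, limma adjusted p = 0.134) ranked 8 among all tested genes. It was 2.77 without IQ3neg_1909B, the library with 0 reads, and 7.52 without IQ3neg_1910B. Melk stood at 19.1 and 192 CPM in IQ3pos, against 7.09 and 15.5 CPM in IQ3neg. Its ratio was 2.69 (95% exact interval 2.48 to 2.93) between the 3-mouse libraries and 12.4 between the 4-mouse libraries. With TMM-scaled CPM the Melk values of IQ3pos_1909A and IQ3neg_1910B crossed, at 15.2 and 18.1, and the log2 difference went from 2.43 (SE 1.13, limma adjusted p = 0.266) to 1.71; in CPM it was 0.80 without IQ3pos_1910A and 4.06 without IQ3pos_1909A. Pbk lies on chromosome 14 at 65805837 to 65817822 and Melk on chromosome 4 at 44300876 to 44364675.

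**Figure D2:**
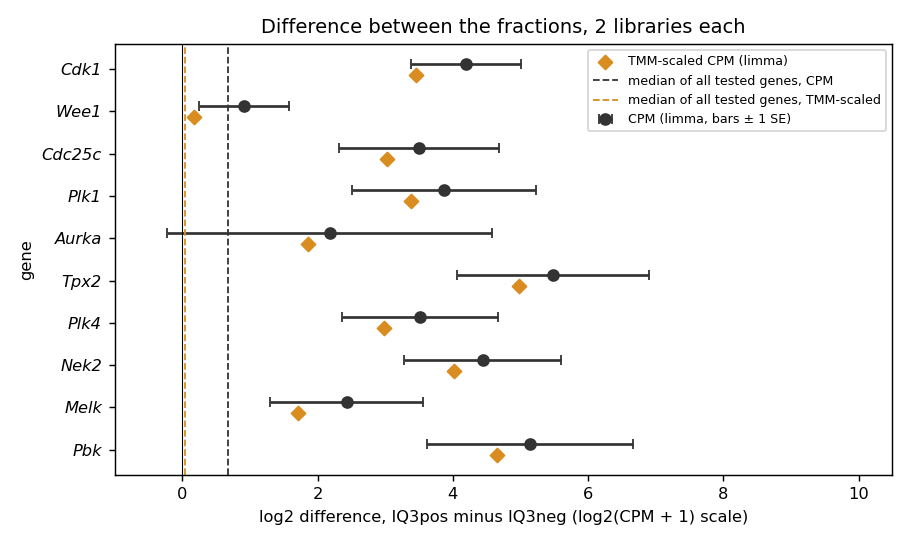
Log2 difference (IQ3pos minus IQ3neg, x axis) of each of the 10 genes (y axis), 2 libraries a group; black circles are limma estimates on log2(CPM + 1) with bars of ± 1 SE, orange diamonds the estimates on TMM-scaled CPM, and dashed lines the medians of all tested genes on each scale. Wee1 lies next to the median of all genes, Tpx2 and Pbk lie farthest from it at 5.49 and 5.14, and the bar of Aurka crosses 0.

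Per kilobase of exon, which allows levels of different genes to be compared, Pbk led in both IQ3pos libraries, with 72.1 and 144 CPM per kb, followed by Cdk1 with 33.2 and 98.8 and Tpx2 with 27.6 and 69.4. Plk1 came next in IQ3pos_1909A at 13.3 CPM per kb and Melk in IQ3pos_1910A at 64.6. At the low end of IQ3pos_1910A were Cdc25c at 9.11 and Plk4 at 8.48 CPM per kb, neighbours that differed by less than the libraries did. The order changed in IQ3neg_1909B, where Wee1 led at 6.04 CPM per kb and Plk1, Nek2 and Pbk were at 0. In IQ3neg_1910B Pbk led again at 14.5 CPM per kb, and Cdk1, Plk1, Melk, Wee1 and Tpx2 lay together between 5.83 and 4.16.

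The 2 libraries of a fraction differed as well. All 10 genes were higher in IQ3pos_1910A than in IQ3pos_1909A, by factors of 2.00 for Pbk to 5.50 for Nek2, 10.04 for Melk and 2343 for Aurka, where 52.8% of tested genes were higher in the former. With TMM-scaled CPM it was again all 10, against 50.1% of genes. In IQ3neg, 9 of 10 were higher in the 4-mouse library, Wee1 being the exception, where 61.7% of genes were. Near-absent genes were concentrated in a single library. In IQ3neg_1909B, 6 of the 10 genes (Plk1, Aurka, Tpx2, Nek2, Pbk and Cdc25c) had 5 reads or fewer, where 11.4% of tested genes did. In IQ3neg_1910B, 0 of the 10 did, where 5.80% of genes did. The summed level of the 10 was 534 and 1709 CPM in IQ3pos, against 35.3 and 134 CPM in IQ3neg.

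Between libraries of the same number, the 10 genes were higher in IQ3pos in all 10 cases among the 3-mouse libraries and all 10 among the 4-mouse libraries, where 66.2% and 66.4% of tested genes were. With TMM-scaled CPM these counts were 9 and 10, against 51.8% and 52.2%, with Wee1 lower in IQ3pos_1909A than in IQ3neg_1909B. The median difference of the 10 on TMM-scaled log2(CPM + 1) was 3.46 among the 3-mouse libraries and 2.94 among the 4-mouse libraries, with all genes at 0.03 in each. Tpx2 and Pbk differed most in the former (6.62 and 6.69), and Nek2 and Aurka in the latter (4.66 and 3.67).

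**Figure D3:**
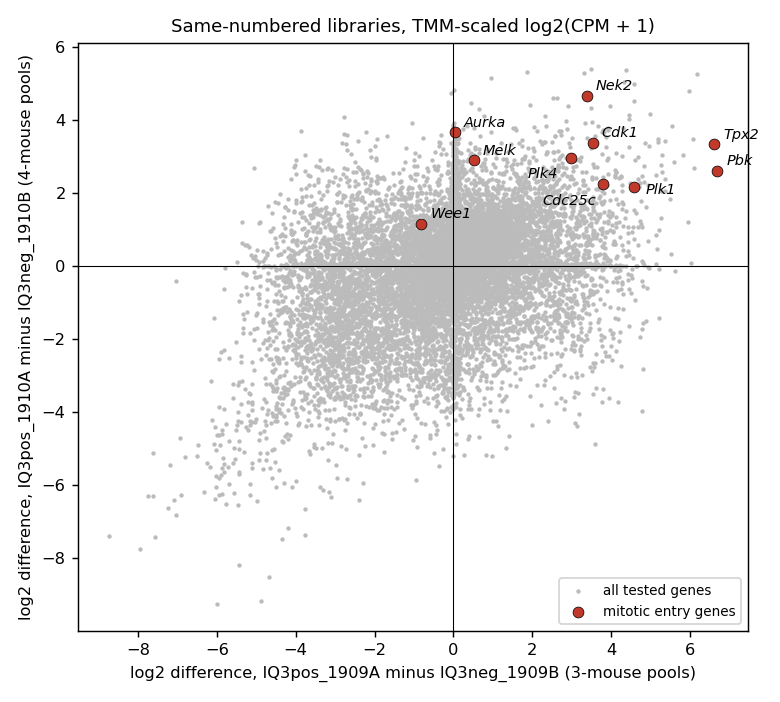
Log2 difference between IQ3pos and IQ3neg, on TMM-scaled log2(CPM + 1), within the 3-mouse libraries (x axis) and within the 4-mouse libraries (y axis); grey points are the 13019 tested genes and red points the 10 mitotic entry genes. Red points lie to the upper right except Wee1, at −0.82 on the x axis, and Aurka and Melk, which are high only on the y axis (0.04 and 0.51 against 3.67 and 2.91).

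Other genes of the pathway were counted in 8 lists holding 79 genes, of which 75 were tested. Limma called 0 higher and 0 lower, at a background of 0% in each direction, and 41 stood higher in both IQ3pos libraries in CPM (31 with TMM-scaled CPM), beside the shares of 40.9% and 24.7% of all genes. In CPM 3 were lower in both and with TMM-scaled CPM 10, where 1843 and 2995 of the 13019 tested genes were. The partners of CDK1 came closest to the 10 genes: 8 of 9 tested were higher in both IQ3pos libraries, with a median log2 difference of 2.62 against 0.68 for all genes. Ccnb1 and Ccnb2, the B cyclins that activate CDK1, stood at 293 ± 262 and 294 ± 175 CPM in IQ3pos and at 12.7 ± 12.9 and 26.2 ± 19.6 in IQ3neg (SD, n = 2 each), with limma adjusted p of 0.0865 and 0.0733.

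Of 8 brakes on CDK1 and genes of their release, 4 were higher in both IQ3pos libraries and 1 lower in both, with a median of 1.65. With TMM-scaled CPM 3 were higher and 3 lower. Chek2, a checkpoint kinase, stood at 48.0 and 42.4 CPM in IQ3pos and at 0.00869 and 10.3 CPM in IQ3neg, while Cdkn1a, the CDK inhibitor p21, stood at 56.6 and 31.6 against 147 and 47.0 CPM. Among Greatwall kinase and the PP2A-B55 phosphatase it restrains, 3 of 7 were higher in both and the median was 0.73, next to that of all genes. Ensa and Arpp19, the small proteins through which Greatwall acts, had log2 differences of 0.91 and 1.57 (limma adjusted p = 0.398 and 0.0779).

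Relatives of the Polo, Aurora and NEK kinases lay below the median of all genes, with a median of −0.18 for 12 tested genes and 4 higher in both IQ3pos libraries. Plk2, a Polo kinase with roles outside mitosis, stood at 133 and 62.5 CPM in IQ3pos and at 57.4 and 175 CPM in IQ3neg, and Nek7 at 46.3 and 102.5 against 33.8 and 22.1 CPM. Aurkb, named here after its value was seen, had the largest difference of this list, 26.1 and 84.6 CPM against 0.0869 and 5.86 CPM. Partners of PLK1 and Aurora A had a median of 1.55, with 6 of 12 higher in both. Kif11, the motor that pushes centrosomes apart, stood at 52.5 and 237 CPM against 0.0174 and 13.2, and Tacc3, a spindle protein bound by Aurora A, at 103 and 307 against 17.9 and 27.1.

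Centriole duplication partners of PLK4 had a median of 1.11, with 4 of 8 higher in both IQ3pos libraries; Cep57 and Cep85 differed by 1.52 and 0.91. The list for the transcription of G2 and M genes had a median of 0.75, with 5 of 10 higher in both, near the 40.9% of all genes. Its most abundant members, Nfyb and Rbbp4, differed by 1.16 and −0.66. In the list of protein turnover, 7 of 9 were higher in both in CPM, where 40.9% of genes were, and 4 of 9 with TMM-scaled CPM, where 24.7% were; the median was 1.09 in CPM. Cdc20, which activates the anaphase-promoting complex, stood at 180 and 413 CPM against 5.00 and 43.1 CPM, while Skp1a, a ubiquitin ligase subunit used throughout the cycle, stood at 275 and 277 against 110 and 150 CPM.

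With TMM-scaled CPM, where the median of all genes was 0.04, the median of the 10 genes was 3.21 and that of the CDK1 partners 1.90. The Greatwall list stood at −0.02, the transcription list at 0.23, the turnover list at 0.33 and the Polo, Aurora and NEK relatives at −0.80 on that scale, so the Greatwall list's median changed sign with the scaling.

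**Figure D4:**
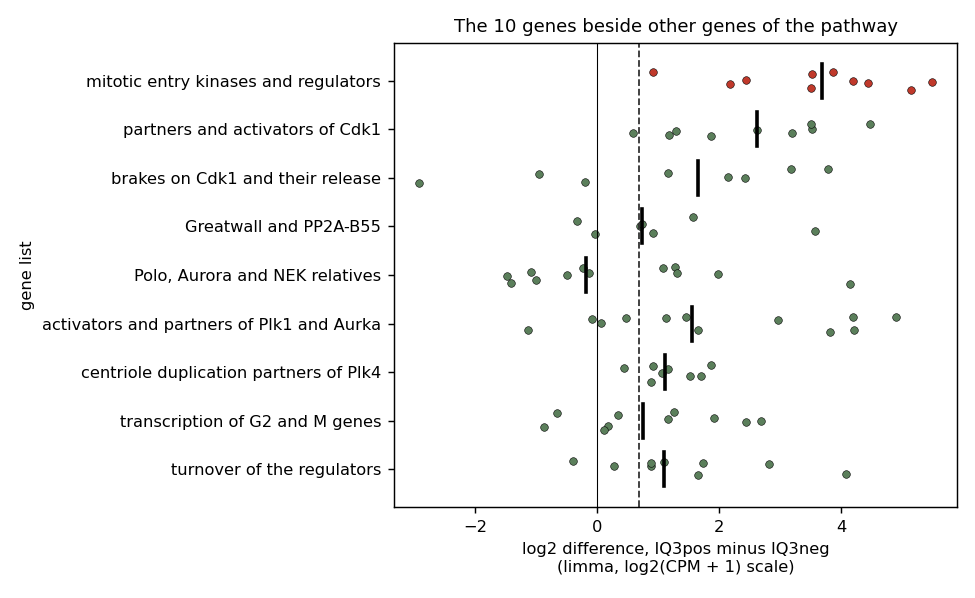
Log2 difference (IQ3pos minus IQ3neg, x axis) of the 10 genes (red) and of the tested genes of 8 pathway lists (green), 1 point per gene; black bars are list medians and the dashed line is the median of all tested genes. The 10 genes have a median of 3.69, the CDK1 partners 2.62, and the Polo, Aurora and NEK relatives −0.18.

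The patterns most like the median profile of the 10 genes, by Euclidean distance between centred log2(CPM + 1) values over the 4 libraries, belonged to Dsn1 (distance 0.26), Ano1 (0.39), Kif18a (0.41), Nup37 (0.44) and Serpinb8 (0.51). Among the 10, Plk4 (0.43) and Cdc25c (0.50) were closest to that profile, and Wee1 (3.34) and Aurka (3.96) farthest. With 4 libraries, many genes can share such a profile.

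Markers of other cells moved with the fractions too. All 8 chief cell markers and all 7 enteroendocrine markers were lower in both IQ3pos libraries, the latter summing to 390 and 189 CPM in IQ3pos and 17087 and 10715 CPM in IQ3neg. The 4 surface pit markers were higher in both, at 9538 and 9754 against 1015 and 1364 CPM, as were 4 of 5 parietal markers, at 4082 and 3035 against 449 and 526 CPM. Mucous neck markers summed to 5175 and 8646 against 1181 and 2168 CPM, with 1 of 3 higher in both. The part of these cell types in the result was not tested. Leukocyte markers summed to 302 CPM in IQ3pos_1909A, 395 in IQ3neg_1909B, 68.6 in IQ3pos_1910A and 74.7 in IQ3neg_1910B, most of it Lyz2. Of 12 leukocyte markers in the table, 2 were higher in both IQ3pos libraries and 1 lower in both. Ptprc (CD45) stood at 22.8 and 0.0824 CPM in IQ3pos, against 38.8 and 14.5 CPM in IQ3neg, while Csf1r, a receptor of macrophages, stood at 25.8 and 15.7 CPM against 4.31 and 1.59 CPM. Cd3e, which defines T cells, stood at 0.0551 CPM or less in each library. Cd3g and Cd79a of the same list stood at 5.96 and 1.91 CPM in IQ3neg_1909B, and at 0.0661 CPM or less in the other libraries. The part of leukocytes in the result was not tested. Fibroblast and smooth muscle markers summed to 1.59 and 1.50 CPM in IQ3pos and 28.6 and 2.22 CPM in IQ3neg, and endothelial markers to 1.64 and 5.34 against 7.78 and 17.0 CPM.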

How the data were processed

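The deposited table holds CPM made by the authors for each gene symbol in 4 libraries, and each column sums to 1000000. STAR 2.7.1a, featureCounts, Subread 2.0.0 and edgeR on GRCm38 are named, per the submitters' processing notes, with no role or order; the annotation and strand setting were not given in the sources used here. Whole reads were recovered from the steps of the CPM (100% of values above 0 within 0.05 of a whole read).

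IQ3pos was compared with IQ3neg on log2(CPM + 1) by limma-trend (version 3.58.1 in R 4.3.3), two-sided. It was run over 13019 genes whose mean reached 1 CPM, with Benjamini-Hochberg adjustment over them at 0.05; there were 2 residual and 3.61 prior degrees of freedom. Differences of low genes are understated on this scale. The p-values reflect spread among 2 pools a fraction, which differed in sex by Ddx3y and Xist. The main test has no term for sex or pool number, so that difference is part of the spread. Some of the spread may also be technical. As alternatives the pseudocount, filter and scaling were varied, libraries were left out in turn and a replicate block was added. The recovered reads were also tested with edgeR 4.0.16 (quasi-likelihood, 9 genes higher and 36 lower of 16831) and DESeq2 1.42.0. The fits were tested on simulated data. GENCODE vM21 (GRCm38) gave exon lengths and 1-based coordinates. Intervals cover counting error only.

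The members, lists and rules were chosen with earlier results of these data known. Named genes are the 10, Iqgap3, Epcam, the 2 most abundant genes of each list where none passed, and the 5 nearest profiles; other list or marker genes were named after their values were seen.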

Additional observations from a re-analysis of the deposited data

How the results depend on the processing

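Each of the 10 genes was refitted under 21 other settings, 210 values in all, of which 198 kept their direction and their side of the threshold, 7 newly passed and 5 changed sign. The sign changes were Wee1 without the 20 most abundant genes (−0.0452), Wee1 with TMM-scaled CPM without IQ3pos_1910A (−0.52) and without IQ3neg_1910B (−0.12), and Aurka without IQ3pos_1910A in CPM (−1.29) and with TMM-scaled CPM (−1.41). With a library left out, Aurka ranged from −1.41 to 5.65 and Wee1 from −0.52 to 1.66. The combination of TMM scaling with a library left out was chosen after seeing the data. Genes called higher and lower were 0 and 0 in the main test and without any library, 239 and 54 with a pseudocount of 5, 689 and 93 with a mean of at least 5 CPM, 6 and 24 with TMM-scaled CPM, 7 and 34 with DESeq2-scaled CPM, 2 and 9 once the 20 most abundant genes were left out, 80 and 31 by edgeR on library size only, 9 and 36 in edgeR with TMM, and 427 and 1705 in DESeq2. Of the 10 genes, 1 was called with a mean of at least 5 CPM (Cdk1, adjusted p = 0.0337) and 1 in DESeq2; of the pathway genes, 7 higher and 4 higher, with 3 lower in DESeq2. The members' median, 3.69, ranged from 2.39 to 4.84 with a library left out in CPM; it was 3.21 with TMM-scaled CPM, and 1.83 to 4.34 with a library left out on that scale. Same-numbered libraries shared sex and their deviations correlated at 0.14 over genes, but the labels do not say that they share mice. With the replicate block limma called 1216 genes higher (9.34%) and 125 lower, 5 of the 10 genes higher (Cdk1, Plk1, Tpx2, Nek2 and Pbk, adjusted p = 0.00386, 0.0331, 0.00981, 0.0467 and 0.0164) and 18 pathway genes higher, and edgeR with TMM and the block called 0. The cause of these differences was not tested. The ratios of Aurka, Plk1, Tpx2, Nek2, Pbk and Cdc25c are limited by their 5 reads or fewer in IQ3neg_1909B. That of Aurka is limited by its 5 reads in IQ3pos_1909A as well. Why these reads were few was not tested.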

Other observations

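Several genes around mitotic entry had patterns outside that of the 10 genes, and all were named after their values were seen. Wee2, a WEE1 relative known from oocytes, was the pathway gene lower in both IQ3pos libraries in CPM among the brakes on CDK1. It stood at 0 and 0.00717 CPM in IQ3pos (0 and 2 reads) and at 7.03 and 6.16 CPM in IQ3neg (808 and 2578 reads), which put it −2.92 (SE 0.88) from IQ3neg on the log2 scale, with a limma adjusted p of 0.137. Cdc25a, the CDC25 phosphatase that also serves the G1 to S step, stood at 16.7 and 24.5 CPM in IQ3pos and at 20.8 and 26.5 CPM in IQ3neg. The fractions thus overlapped in CPM, unlike those of Cdc25c. Its log2 difference was −0.21 in CPM and −0.94 with TMM-scaled CPM. Pkmyt1, the membrane-bound kinase that also adds inhibitory phosphates to CDK1, stood at 0.0331 and 5.00 CPM in IQ3pos (3 and 1396 reads). In IQ3neg it stood at 0.235 and 0.00239 CPM (27 reads and 1 read).

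Aurka was not the only regulator that was nearly absent from IQ3pos_1909A and present in IQ3pos_1910A. Haspin, a histone H3 kinase of mitosis, stood at 0.0441 and 22.1 CPM in these libraries, and Foxm1, a transcription factor of G2 and M genes, at 0.220 and 17.1 CPM. Foxm1 stood at 2.78 and 3.59 CPM in IQ3neg_1909B and IQ3neg_1910B, between the 2 IQ3pos libraries. The centriole list was mixed between these libraries. Sass6, Cep63, Cep85 and Cep57 were higher in IQ3pos_1910A, while Stil, Cep152, Cenpj and Cep135 went the other way. Cenpj stood at 21.3 CPM in IQ3pos_1909A and 0.00358 CPM in IQ3pos_1910A, and Cep135 at 27.0 and 0.0251 CPM. Mastl, which encodes Greatwall, was even across IQ3pos, at 59.2 and 66.5 CPM, against 1.65 and 9.92 CPM in IQ3neg.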
